A study of Rattus norvegicus with 6 samples.

Results

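The caspase family was read in RNA of rat corneal epithelium through 8 genes, Casp1, Casp2, Casp4, Casp6, Casp8, Casp9, Casp12 and Casp14. A row of the deposited locus tables was taken for a gene when its name was that symbol, and where several rows carried the symbol the protein-coding row of highest mean level was used. All 8 genes had such a row. In all, 12 of 61453 loci carried 1 of the 8 names, 4 of them Casp8 and 2 of them Casp9, and each of the other 6 genes had 1 row. The row of Casp6 is typed as both protein coding and retained intron. Positions of rows are in build rn6, as in the tables.

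The study compared STZ rats (diabetic) with NOR rats (normal), both male Brown Norway. STZ rats had received 1 intraperitoneal injection of streptozocin, a toxin of pancreatic beta cells, at 50 mg/kg, and NOR rats citrate buffer alone. Corneal epithelium was scraped from the cornea 16 weeks later and its RNA sequenced as 3 libraries per group, STZ 1 to 3 and NOR 1 to 3. The study describes 3 rats per group, and the sample titles carry the numbers 1 to 3 in each group. The sources used here do not say how corneas or rats were combined into a library. The p-values below therefore measure only the spread between these libraries, which may be technical. The injection models diabetes through loss of insulin-producing cells, and the scraped tissue can carry cells of neighbouring layers.

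Caspases are cysteine proteases that cut their targets after aspartate and are made as inactive precursors. Initiator caspases are switched on when adaptor platforms bring them together, at death receptors for caspase-8, at the Apaf1 apoptosome for caspase-9 and at the PIDDosome for caspase-2, and executioner caspases then cut the proteins whose loss dismantles the cell. Inflammatory caspases act at inflammasomes, mature interleukin-1 beta and interleukin-18 and open gasdermin pores in pyroptosis, while caspase-14 serves the cornification of keratinocytes. The libraries measure the RNA of the precursors, and cleavage was not measured here.

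The total of a library was 87040253, 62288901 and 64263130 counts in STZ 1 to 3, against 78980853, 76500184 and 81139312 counts in NOR 1 to 3. A count of 0 allows up to 0.0482 CPM (counts scaled to the library total) in the shallowest library, taken as 3 counts and covering counting error only. Corneal epithelium was present, since Krt12, its keratin, stood at 4119 ± 305 FPKM in STZ libraries and 3949 ± 282 FPKM in NOR libraries (SD, n = 3 each). Genes of other layers were read as well. Kera of keratocytes averaged 227 ± 59.5 FPKM in STZ and 275 ± 14.8 FPKM in NOR libraries. Slc4a11 of corneal endothelium averaged 35.2 ± 13.4 FPKM in STZ and 40.1 ± 4.45 FPKM in NOR libraries. Which layer the caspase RNA came from was not tested. FPKM are counts scaled by transcript length and library size, so a comparison between genes rests on the length taken for each. On the first principal component of all tested loci (26.2% of the variance), STZ 2 and STZ 3 stood apart at 43.8 and 53.1, against -28.8 for STZ 1 and -38.9 to -11.2 for NOR libraries. On the second component (21.8%) STZ 2 and STZ 3 lay on opposite sides, at 29.3 and -40.6, and NOR 3 was lowest at -49.1. Results that rest on STZ 2 and STZ 3 are given with the limit that both stood apart on the first component.

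No caspase gene passed the test, which compared log2(FPKM + 1) between groups with limma and asked for a Benjamini-Hochberg adjusted p under 0.05 over all loci and a fold change over 1.2. The count was 0 of 8 with limma, with edgeR and with DESeq2, where 0.0259%, 0.0141% and 0.233% of the 42551 loci tested passed with each tool in that order. At an unadjusted p under 0.05, limma, edgeR and DESeq2 each picked 2 of the 8, Casp8 and Casp12, beside 4.8% of all loci with limma. Of the 42551 loci, edgeR picked 1760 and DESeq2 2125 in this way. The estimated difference was positive for 5 genes and negative for 3, with a median log2 fold change of 0.08, against -0.0049 over all loci. Casp8 was the gene whose 3 STZ libraries all lay above the 3 NOR libraries (1 of 8, beside 3.94% of all loci), and 0 of 8 had all STZ libraries below (5.72% of all loci). All 8 genes passed the filter on low values, a mean of at least 0.5 FPKM.

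In FPKM the 8 genes were all low, between 1.46 and 6.30 FPKM on average over the 6 libraries. Casp8 had the highest mean, at 6.30 FPKM, and Casp2 followed at 5.06 FPKM. Casp4 at 2.89, Casp1 at 2.88 and Casp9 at 2.53 FPKM formed the middle. Casp14 at 1.91, Casp12 at 1.64 and Casp6 at 1.46 FPKM closed the order. The ranges of libraries overlapped between each gene and the next in that order, except that the lowest library of Casp2, at 4.03 FPKM, lay just above the highest of Casp4, at 3.93 FPKM. The order holds for FPKM, which divide by length. The length implied by counts and FPKM was 13.45 kb for Casp8 and 9.78 kb for Casp2, against 1.54 to 3.77 kb for the other genes. In CPM, Casp8 had 64.1 to 108 and Casp2 39.7 to 62.2, while Casp6 had 2.43 to 4.56. The plot of FPKM by library shows which genes varied within a group.

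**Figure D1:**
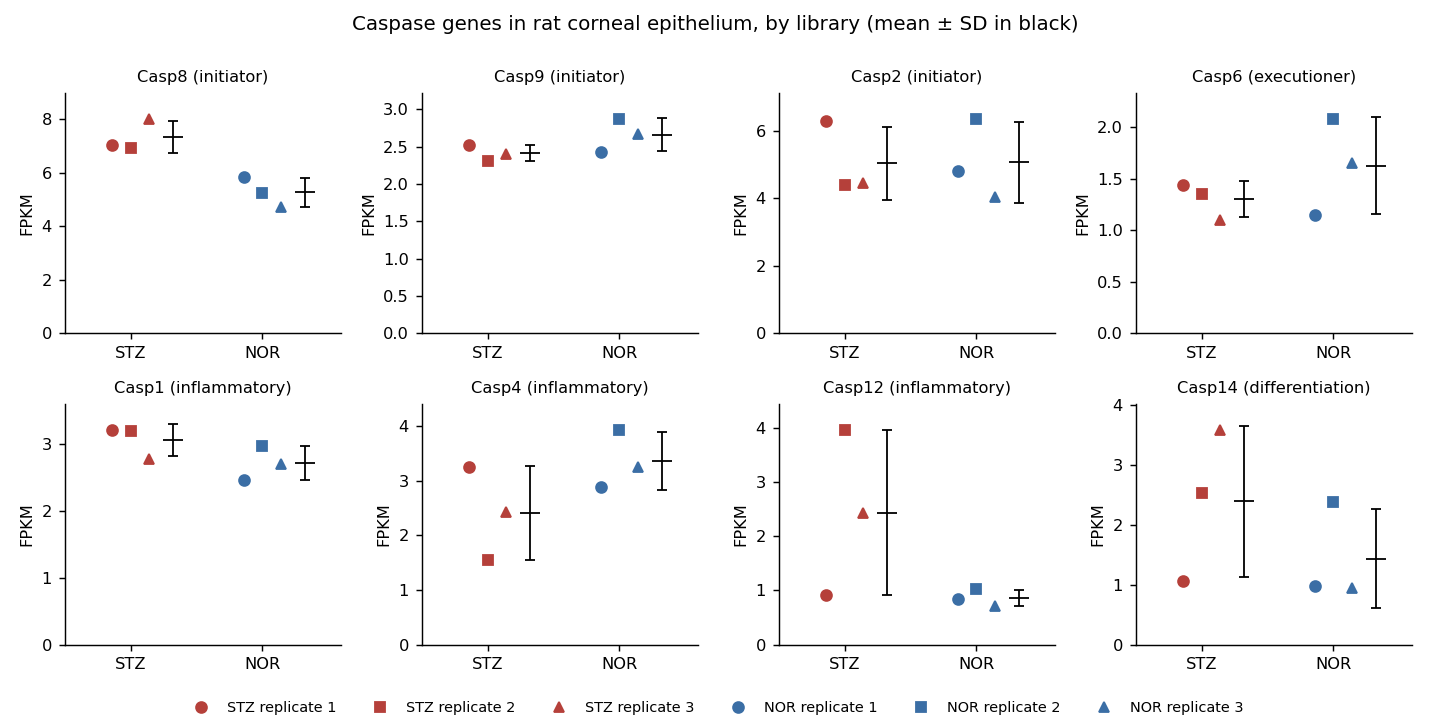
FPKM of the 8 caspase genes (vertical axis, from 0) in each STZ library (left, red) and NOR library (right, blue), with group means ± SD in black. Casp8 shows no overlap between groups (6.94 to 8.02 FPKM in STZ, 4.73 to 5.83 FPKM in NOR), while Casp12 is high in STZ 2 and STZ 3 and not in STZ 1.

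Casp8 encodes the initiator caspase of death receptors, which also holds back necroptosis and can take part in inflammasome signalling. Its protein-coding row (MSTRG.45696, rn6 chr9:65614142-65662106, plus strand, 6 transcripts) had 7.02, 6.94 and 8.02 FPKM in STZ 1 to 3, against 5.83, 5.24 and 4.73 FPKM in NOR 1 to 3. These rest on 8183, 5804 and 6943 counts in STZ libraries and 6188, 5393 and 5201 counts in NOR libraries. Every STZ library was above every NOR library, the gap lying between STZ 2 and NOR 1. The study measured Casp8 by PCR and reports it as significantly higher in diabetic than in normal samples. Its own sequencing analysis also called Casp8 upregulated, while Casp8 did not pass here. The designed primer pair is shown here as the sequences designed for this gene, 5′ to 3′ and wholly in capitals. The pair was not placed on the 4 rows of Casp8.
Casp8 forward primer: AACGTCTGGGCAACGAAGAAC
Casp8 reverse primer: ACGAGCTCCTTCAGGAAGGAC

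The mean of the Casp8 coding row was 7.33 ± 0.603 FPKM in STZ and 5.27 ± 0.549 FPKM in NOR libraries (SD, n = 3 each), a ratio of 1.39. The limma log2 fold change was 0.43 (SE 0.12, 95% interval 0.15 to 0.71), with an unadjusted p of 0.00746 and an adjusted p of 0.953. On the counts, edgeR gave a log2 fold change of 0.50 (adjusted p = 0.991) and DESeq2 gave 0.50 (SE 0.16, adjusted p = 0.239). The exact two-sided permutation test of the FPKM means over 20 assignments gave p = 0.1, the smallest that 3 against 3 libraries allow. By limma the log2 fold change stayed between 0.36 and 0.50 when any 1 library was left out, each time at an unadjusted p under 0.05 (6 of 6). The adjusted p of these fits was 0.455 or higher.

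The coding row held only part of the reads named Casp8. Fragment 1 (MSTRG.45697, chr9:65625090-65626456, plus strand) lies inside the coding row and had 11.6, 16.2 and 18.1 FPKM in STZ libraries, against 13.4, 15.4 and 14.4 FPKM in NOR libraries. Fragment 2 (MSTRG.45698, chr9:65627389-65638257, plus strand), also inside, had 3.94, 5.67 and 4.17 FPKM in STZ libraries, against 3.78, 3.34 and 3.33 FPKM in NOR libraries. Fragment 1 overlapped widely between groups, and fragment 2 did not overlap, STZ being higher. Fragment 3 (MSTRG.45699, chr9:65663288-65663506, no strand assigned) lies beyond the end of the coding row and had 10, 13 and 31 counts in STZ libraries, against 26, 30 and 14 counts in NOR libraries. It was near the limit of detection and overlapped between groups.

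The 3 fragments carry no transcript type in the tables. Log2 fold changes by limma were 0.09 (SE 0.17) for fragment 1, 0.32 (SE 0.15, unadjusted p = 0.067) for fragment 2 and -0.14 (SE 0.30) for fragment 3. The unadjusted p of fragment 2 was 0.0420 with edgeR and 0.0353 with DESeq2, and its limma value was 0.18 without STZ 2. The implied length of fragment 2, 12.3 kb from counts and FPKM, is close to its span of 10869 bases, and the row has 1 transcript. By the same measure the coding row of Casp8 came to 13.45 kb, while the row of Casp1 came to 1.82 kb. Whether the coding row holds only mature Casp8 RNA was not tested. The coding row took 58.7%, 49.5% and 57.5% of the counts named Casp8 in STZ libraries, against 53.7%, 51.8% and 50.1% in NOR libraries. That share overlapped between groups.

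Summed over its 4 rows, Casp8 had 160, 188 and 188 CPM in STZ libraries, against 146, 136 and 128 CPM in NOR libraries. The groups did not overlap in this sum either. In FPKM the sum was 23.0, 29.6 and 32.2 in STZ libraries, against 24.3, 25.6 and 23.1 in NOR libraries. There STZ 1 lay below every NOR library, and fragment 1 made up the largest portion of each sum. Of the counts, fragment 1 held only 11.3%, 13.4% and 15.1% in STZ libraries, against 14.3%, 17.7% and 17.7% in NOR libraries. Its implied length is 1.56 kb, against 13.45 kb for the coding row, so each of its reads adds more to a sum of FPKM. The sum of FPKM over rows of unlike length is therefore no level of the gene. The log2 fold change of the summed FPKM was 0.20 (limma without quantile normalization, unadjusted p = 0.188). In that setting the coding row gave 0.41. The row of highest FPKM, fragment 1, gave 0.06 there and 0.09 with quantile normalization. The estimate for Casp8 therefore depends on the row that is read.

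**Figure D2:**
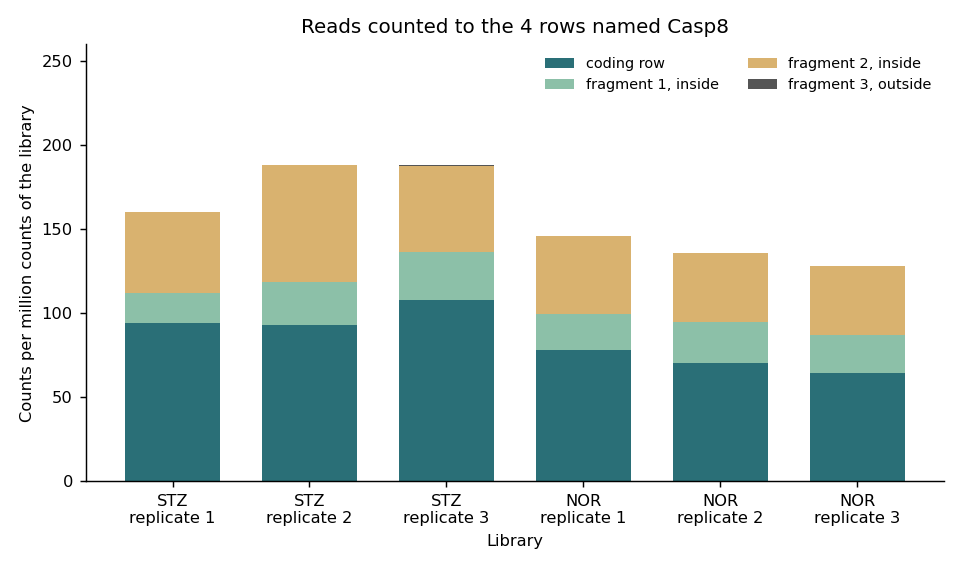
CPM (vertical axis, from 0) assigned to the 4 rows named Casp8, stacked, for the 3 STZ libraries (left) and the 3 NOR libraries (right). The sums are 160 to 188 CPM in STZ and 128 to 146 CPM in NOR, and the coding row takes between 49.5% and 58.7% of each.

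Summed markers of stroma and neutrophils, and an epidermal sum that was nearly all Krt10, also separated the groups, as Casp8 did. The summed level of the keratocyte and stroma list was 726 to 824 FPKM in STZ and 829 to 1052 FPKM in NOR libraries, and 0 of its 7 tested genes (10 listed) had a positive log2 fold change. The neutrophil list, 5 genes that were all below the filter, summed to 0.873 to 1.39 FPKM in STZ and 0.253 to 0.581 FPKM in NOR libraries, with S100a9 and Cxcr2 at 0 in every NOR library. Without S100a9, a choice made after the data had been seen, the sums overlapped (0.423 to 0.657 FPKM in STZ and 0.253 to 0.581 FPKM in NOR libraries), and the level of S100a8 overlapped too. The epidermal markers (6 listed, 4 with a row of their own) summed to 0.718 to 1.31 FPKM in STZ and 1.80 to 3.08 FPKM in NOR libraries. That sum was nearly all Krt10, since Krt2 and Lor were at 0 throughout and Krt77 was at 0 outside NOR 3. The macrophage and monocyte markers (12 listed, 11 with a row of their own, 4 tested) summed to 19.1 to 34.1 FPKM in STZ and 23.4 to 24.8 FPKM in NOR libraries, and 4 of 6 T and NK cell markers were at 0 throughout. Of the 4 tested, all STZ libraries lay above all NOR libraries for Cd14 (8.30 ± 3.38 FPKM in STZ, 3.32 ± 1.27 FPKM in NOR) and below them for Cd74 (3.08 ± 0.354 FPKM in STZ, 5.75 ± 2.08 FPKM in NOR). Summed markers of corneal epithelium, conjunctiva, corneal endothelium, mast cells, blood vessels and red cells overlapped between groups. The mast cell sum was nearly all Kit (13.9 ± 5.18 FPKM in STZ, 14.4 ± 1.36 FPKM in NOR), with Ms4a2 and Mcpt1 at 0 throughout. For blood vessels the sum was nearly all Vwf, and for red cells it was Alas2 alone, with Hbb at 0 throughout. These sums therefore rest on single genes. Single genes did not all overlap. Of 6 tested epithelial genes, 2 had all STZ libraries above all NOR libraries and 0 below, namely Upk1b (329 ± 23.0 FPKM in STZ, 255 ± 15.1 FPKM in NOR) and Clu (16.1 ± 14.2 FPKM in STZ, 5.22 ± 0.165 FPKM in NOR). Of 4 tested conjunctival genes, 1 lay above and 0 below, Krt8 (22.0 ± 4.48 FPKM in STZ, 13.8 ± 2.23 FPKM in NOR). Of all loci 3.94% lay above. Other genes of both lists went the other way in limma log2 fold change. Among conjunctival genes Krt4 (-0.50) and Krt13 (-0.22) were negative, and Krt7 (0.32) and Krt8 (0.64) positive. Among epithelial genes 3 of 6 were positive, while Pax6 (-0.13), Aldh3a1 (-0.34) and Tkt (-0.08) were negative. The part of these cells in the Casp8 difference was not tested. In such bulk RNA, fewer cells of a type and less RNA per cell cannot be told apart.

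Casp9, the initiator that Apaf1 activates once cytochrome c leaves mitochondria, varied least of the 8 (coefficient of variation 8.16% over 6 libraries). Its coding row (MSTRG.36522, chr5:160355833-160373069, plus strand) had 2.52, 2.31 and 2.40 FPKM in STZ libraries, against 2.43, 2.87 and 2.67 FPKM in NOR libraries. STZ 1 lay above NOR 1 and the groups overlapped there alone. The limma log2 fold change was -0.09 (SE 0.12, 95% interval -0.37 to 0.19, adjusted p = 0.967), and it was -0.05 without NOR 2. A second row without strand (MSTRG.36523, chr5:160357004-160358218) lies inside it and had 4.64, 4.71 and 6.61 FPKM in STZ libraries, against 5.32, 4.84 and 6.35 FPKM in NOR libraries. That row overlapped fully between groups (log2 fold change -0.03, SE 0.15).

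Casp2, the initiator linked to DNA damage and to cells with extra centrosomes, had nearly equal means in both groups. Its row (MSTRG.31911, chr4:71652354-71670239, plus strand) had 6.30, 4.39 and 4.46 FPKM in STZ libraries, against 4.81, 6.37 and 4.03 FPKM in NOR libraries. Each group had 1 library near 6 FPKM and 2 lower ones. Its log2 fold change by limma was 0.02 (SE 0.19, 95% interval -0.42 to 0.45, adjusted p = 0.997), and its sign turned in 4 of 18 alternatives.

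Casp6, an executioner caspase that cuts nuclear lamins, had the lowest mean. Its row (MSTRG.25944, chr2:230186198-230198555, plus strand) had 1.44, 1.36 and 1.10 FPKM in STZ libraries, against 1.15, 2.08 and 1.65 FPKM in NOR libraries. NOR 1 lay among the STZ libraries and the other NOR libraries above them. By limma the log2 fold change was -0.15 (SE 0.19, 95% interval -0.59 to 0.28, adjusted p = 0.965). It was -0.03 without NOR 2, -0.07 without STZ 3 and -0.28 without NOR 1.

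Casp1, Casp4 and Casp12 lie side by side on the plus strand of chromosome 8. Casp4 starts 21219 bases after the end of Casp1, and Casp12 starts 7132 bases after the end of Casp4. The starts of Casp1 and Casp12 are shown because both hold the same 10 letters close to the transcription start. The windows run from 70 bases before to 20 bases after the RefSeq start in build GRCr8 (Casp1 chr8:10872760-10872849, Casp12 chr8:10927118-10927207, plus strand), with the match in capitals.
Casp1 promoter: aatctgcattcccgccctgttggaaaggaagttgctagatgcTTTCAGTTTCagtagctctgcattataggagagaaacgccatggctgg
Casp12 promoter: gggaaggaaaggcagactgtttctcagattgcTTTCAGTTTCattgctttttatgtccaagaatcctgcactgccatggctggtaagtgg

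The capitals match the core of interferon response elements (GAAA, any 2 bases, GAAA) read on the opposite strand, and begin at -28 in Casp1 and -38 in Casp12. The motif was chosen after the sequences had been seen, was searched on both strands of the 300 bases around each start, and is held by 3.92% of 33469 RefSeq promoters. Of the 8 genes 6 had a promoter in the table, and those of Casp2, Casp6, Casp9 and Casp14 held no match. TATAAA, also searched on both strands, matched in Casp12 alone, on the opposite strand at 33 and clear of the other motif, and is held by 14.2% of all promoters. The Casp2, Casp6 and Casp9 promoters were rich in G and C (66%, 63% and 72%), against 43.3% for Casp1, 41% for Casp12 and 47.3% for Casp14, with a median of 51.7% over all promoters. A match of letters is no measurement of binding.

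Casp1 encodes the inflammasome protease that matures interleukin-1 beta. Its row (MSTRG.42094, chr8:2529456-2614631) had 3.20, 3.19 and 2.77 FPKM in STZ libraries, against 2.46, 2.97 and 2.70 FPKM in NOR libraries. STZ 1 and STZ 2 were the highest of the 6 and STZ 3 lay within the NOR range. Its log2 fold change by limma was 0.14 (SE 0.13, 95% interval -0.16 to 0.44, adjusted p = 0.956).

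Casp4, whose mouse counterpart caspase-11 senses bacterial lipopolysaccharide in the cytosol and cuts gasdermin D, was lower on average in STZ libraries. Its row (MSTRG.42095, chr8:2635851-2651652) had 3.26, 1.55 and 2.44 FPKM in STZ libraries, against 2.88, 3.93 and 3.26 FPKM in NOR libraries. STZ 2 and STZ 3 were the lowest of the 6, and STZ 1 lay within the NOR range. The limma log2 fold change was -0.37 (SE 0.20, 95% interval -0.83 to 0.10, adjusted p = 0.953), and it was -0.19 without STZ 2.

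Casp12, tied in mouse to stress of the endoplasmic reticulum, was the most variable of the 8 (coefficient of variation 78.8%). Its row (MSTRG.42096, chr8:2658785-2689904) had 0.915, 3.96 and 2.42 FPKM in STZ libraries, against 0.842, 1.02 and 0.710 FPKM in NOR libraries. These rest on 299, 923 and 584 counts in STZ libraries and 251, 293 and 219 counts in NOR libraries. STZ 2 and STZ 3 were the highest of the 6, while STZ 1 lay inside the NOR range.

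The mean of Casp12 was 2.43 ± 1.52 FPKM in STZ and 0.857 ± 0.154 FPKM in NOR libraries (SD, n = 3 each). Its log2 fold change by limma was 0.79 (SE 0.33, 95% interval 0.03 to 1.56, unadjusted p = 0.0434, adjusted p = 0.953), on a scale that understates changes of low values. On the counts, edgeR gave 1.53 (unadjusted p = 0.0168, adjusted p = 0.991) and DESeq2 gave 1.53 (SE 0.45, adjusted p = 0.144). The exact permutation test gave p = 0.2. With limma the value was 0.46 without STZ 2 and 1.15 without STZ 1. The unadjusted p was under 0.05 in 1 of 6 fits with 1 library left out, the fit without STZ 1.

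STZ 2 and STZ 3 were also the shallowest libraries and the ones set apart on the first principal component. Early and stress genes summed to 746, 373 and 382 FPKM in STZ libraries, against 572, 425 and 760 FPKM in NOR libraries, so they were lowest where Casp12 was highest. Lens genes, a sign of carried-over tissue, summed to 162, 1399.5 and 3.36 FPKM in STZ libraries, against 405, 118 and 164 FPKM in NOR libraries, with STZ 2 and STZ 3 at opposite ends. The part of these in the Casp12 values was not tested.

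Casp12 and Casp4 ran in opposite directions across the libraries. The ratio of Casp12 to Casp4 counts was 0.687, 6.24 and 2.42 in STZ libraries, against 0.717, 0.633 and 0.534 in NOR libraries. Over the 6 libraries Pearson's r of log2(FPKM + 1) was -0.90 and Spearman's rho -0.49. Without STZ 2 and STZ 3, the farthest from the median of Casp12, r was 0.61 over 4 libraries, so the opposite course rests on those libraries. The sum of both genes was 8.43, 17.2 and 12.8 CPM in STZ libraries, against 7.61, 9.88 and 7.75 CPM in NOR libraries, overlapping at STZ 1.

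**Figure D3:**
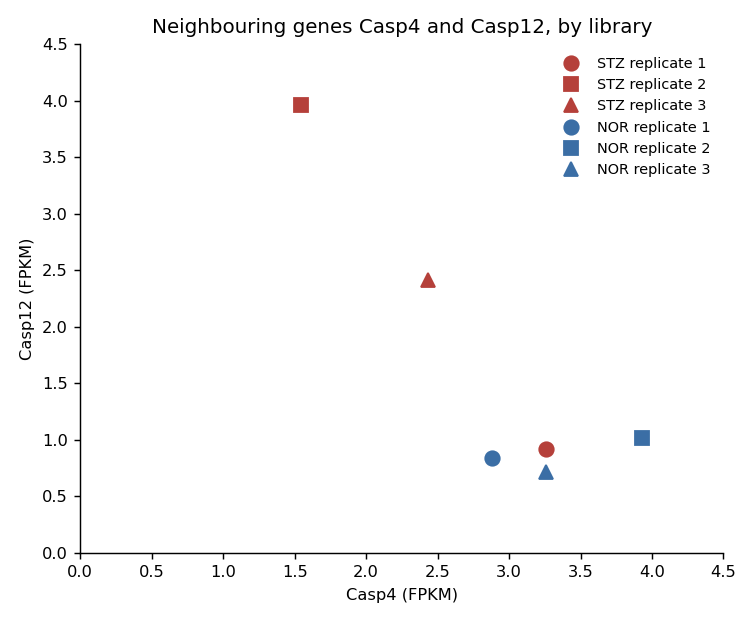
Casp4 (horizontal axis, FPKM) against Casp12 (vertical axis, FPKM) for each STZ library (red) and NOR library (blue). STZ 2 and STZ 3 have low Casp4 and high Casp12 (3.96 and 2.42 FPKM), while STZ 1 lies among the NOR libraries.

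Casp14 encodes the caspase of keratinocyte differentiation, which takes part in filaggrin breakdown in skin. Its row (MSTRG.39713, chr7:13938302-13945130, plus strand) had 1.06, 2.53 and 3.58 FPKM in STZ libraries, against 0.973, 2.38 and 0.938 FPKM in NOR libraries. Both groups held low and high libraries, with STZ 3 the highest and NOR 2 close to STZ 2. By limma the log2 fold change was 0.47 (SE 0.33, 95% interval -0.31 to 1.25, adjusted p = 0.953). It was 0.23 without STZ 3, 0.78 without STZ 1 and 0.74 without NOR 2.

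Libraries with STZ 1 left out were compared as well, a choice made after the data had been seen. Casp8, Casp12 and Casp14 then lay above all NOR libraries (3 of 8, beside 12.3% of all loci), and Casp4 and Casp9 lay below (2 of 8, beside 15.5% of all loci). Casp4, Casp8, Casp12 and Casp14 had an unadjusted limma p under 0.05 (4 of 8, beside 9.34% of all loci). None of the 8 passed, the lowest adjusted p with limma being 0.400. The plot of log2 fold changes sets the tools side by side for all libraries.

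**Figure D4:**
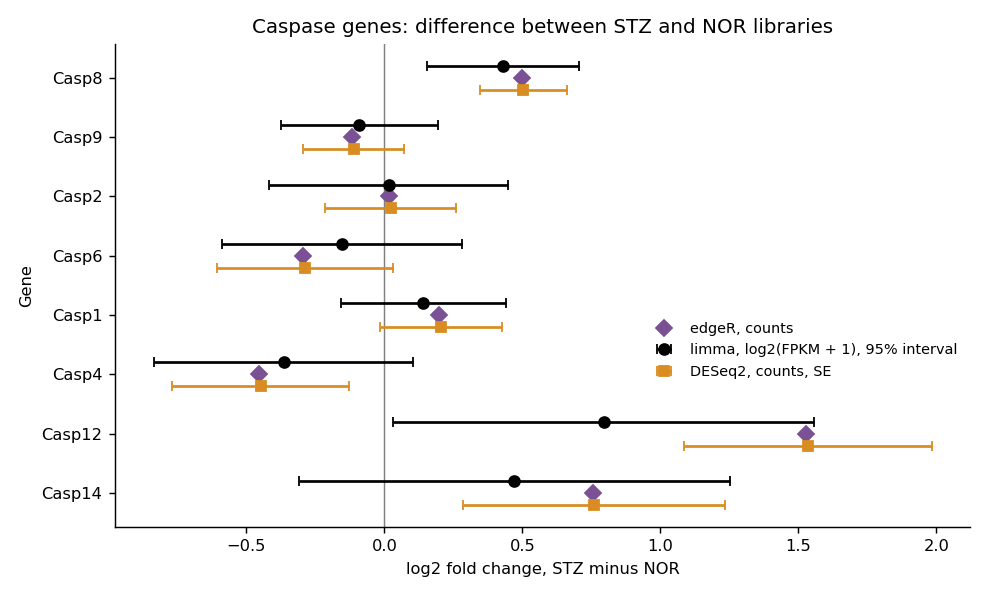
log2 fold change (horizontal axis, STZ minus NOR) of the 8 caspase genes by limma on log2(FPKM + 1) with 95% interval, edgeR on counts, and DESeq2 on counts with SE. The intervals of Casp8 (0.15 to 0.71) and Casp12 (0.03 to 1.56) lie above 0 before adjustment, and those of the other 6 genes include 0.

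Among the 28 pairs of caspase genes, the highest Pearson's r of log2(FPKM + 1) over the 6 libraries was 0.89 for Casp6 and Casp9, 0.87 for Casp4 and Casp9 and 0.76 for Casp12 and Casp14. The lowest was -0.90 for Casp4 and Casp12, -0.73 for Casp8 and Casp9 and -0.68 for Casp6 and Casp8. The points share library depth and composition, and 6 libraries give a description only. The protein-coding locus most alike in course, among 5434 with a mean of at least 5 FPKM, was Oplah for Casp8 (r 0.996), Ildr1 for Casp12 (0.990), Sf3b5 for Casp4 (0.993), Nipal3 for Casp14 (0.991), Lman2 for Casp2 (0.990), Dsc2 for Casp9 (0.985), Tmed10 for Casp1 (0.978) and Akt1 for Casp6 (0.971). With 6 libraries such values arise often, since between 13 and 104 loci per gene exceeded 0.9.

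The partners of the caspases were read from 9 lists, and none of their genes passed. Of 96 listed genes 65 were tested, and limma, edgeR and DESeq2 each passed 0 of them. At an unadjusted p under 0.05 there were 1 with limma (1.54%, beside 4.8% of all loci), 2 with edgeR and 3 with DESeq2. Beside these stand 1760 of 42551 loci with edgeR and 2125 with DESeq2. All STZ libraries lay above all NOR libraries for 3 of the 65 (4.62%, beside 3.94% of all loci) and below them for another 3 (4.62%, beside 5.72% of all loci). Of the 65, 41 were positive in log2 fold change, and the median was 0.03.

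For Casp8, 9 of 15 genes of the death receptor complex were tested and 7 were positive, with a median log2 fold change of 0.08. Tnfrsf1a, the receptor of tumour necrosis factor, averaged 15.1 ± 0.856 FPKM in STZ and 15.0 ± 0.560 FPKM in NOR libraries. Mlkl, the pore-forming effector of necroptosis, averaged 8.34 ± 1.15 FPKM in STZ and 7.50 ± 2.43 FPKM in NOR libraries. Both overlapped between groups.

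For Casp9, 11 of 12 genes of the apoptosome and its mitochondrial factors were tested and 6 were positive, with a median log2 fold change of 0.03. Cycs, cytochrome c, averaged 14.5 ± 3.77 FPKM in STZ and 15.9 ± 1.06 FPKM in NOR libraries. Bcl2l1, an inhibitor of cytochrome c release, averaged 10.5 ± 0.798 FPKM in STZ and 10.3 ± 0.187 FPKM in NOR libraries. Of the caspase inhibitors 3 of 6 were tested, among them Xiap, which blocks caspase-9, at 16.7 ± 0.660 FPKM in STZ and 15.3 ± 1.91 FPKM in NOR libraries, and Birc6 at 10.4 ± 0.90 FPKM in STZ and 9.47 ± 0.0982 FPKM in NOR libraries. None of these 4 passed the test.

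For Casp2, the 3 genes of the list were tested, with a median log2 fold change of 0.03. Pidd1, the platform protein of the PIDDosome, averaged 0.965 ± 0.0658 FPKM in STZ and 1.00 ± 0.265 FPKM in NOR libraries. Cradd, its adaptor RAIDD, averaged 0.928 ± 0.337 FPKM in STZ and 0.632 ± 0.149 FPKM in NOR libraries. Madd, a death-domain protein that was listed but is not a component of the PIDDosome and supplies the median, averaged 5.34 ± 0.542 FPKM in STZ and 5.24 ± 0.349 FPKM in NOR libraries. All 3 overlapped between groups. Of the apoptotic substrates 13 of 15 were tested and 11 were positive, with a median of 0.09. Sptan1, an alpha spectrin cut in apoptosis, averaged 81.6 ± 4.54 FPKM in STZ and 76.1 ± 3.34 FPKM in NOR libraries, and Gsn, gelsolin, 48.4 ± 28.9 FPKM in STZ and 48.2 ± 30.3 FPKM in NOR libraries. The spread of Gsn was wide in both groups.

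For Casp1, 8 of 15 inflammasome genes were tested and 4 were positive, with a median of 0.02. All STZ libraries lay above all NOR libraries for 1 of the 8 (beside 3.94% of all loci) and below them for 2 (beside 5.72% of all loci). Nlrp3 itself was below the filter, at 0.0239 ± 0.0122 FPKM in STZ and 0.0743 ± 0.0265 FPKM in NOR libraries. Txnip, which binds thioredoxin and the sensor NLRP3, averaged 114 ± 32.1 FPKM in STZ and 102 ± 8.59 FPKM in NOR libraries, and Nek7, a kinase that binds NLRP3, 10.5 ± 1.07 FPKM in STZ and 11.3 ± 0.474 FPKM in NOR libraries. Of the inflammatory substrates 4 of 7 were tested and 2 were positive, with a median of -0.08. Il18 averaged 5.12 ± 2.97 FPKM in STZ and 7.13 ± 1.67 FPKM in NOR libraries, and Il1a 6.98 ± 2.85 FPKM in STZ and 6.75 ± 2.23 FPKM in NOR libraries. Txnip, Nek7, Il18 and Il1a each overlapped between groups.

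For Casp12, 9 of 11 genes of endoplasmic reticulum stress were tested and 7 were positive, with a median of 0.03. Hspa5, the chaperone BiP, averaged 36.0 ± 8.97 FPKM in STZ and 35.3 ± 2.17 FPKM in NOR libraries, and Atf4, a stress transcription factor, 53.3 ± 14.8 FPKM in STZ and 51.1 ± 3.30 FPKM in NOR libraries. Neither was highest in STZ 2, where Casp12 was highest. Any link of Casp12 with endoplasmic reticulum stress was not tested.

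For Casp14, 6 of 15 genes of the cornified envelope and of filaggrin processing were tested, and 0 of 6 were positive, with a median log2 fold change of -0.36. Sprr1a, an envelope precursor, had 210.0, 114 and 54.8 FPKM in STZ libraries, against 167, 147 and 186 FPKM in NOR libraries. It was lowest in STZ 3, where Casp14 was highest, and any link of Sprr1a with Casp14 was not tested. Dsg1, a desmosomal cadherin, averaged 118 ± 22.9 FPKM in STZ and 120 ± 21.8 FPKM in NOR libraries. Krt10, a keratin of epidermis and the 1 tested epidermal marker, had 0.951, 1.31 and 0.718 FPKM in STZ libraries, against 3.08, 1.80 and 1.95 FPKM in NOR libraries, all STZ libraries being lower (limma adjusted p = 0.953). Krt10 was named after its values had been seen, and it is the gene behind the epidermal sum above.

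**Figure D5:**
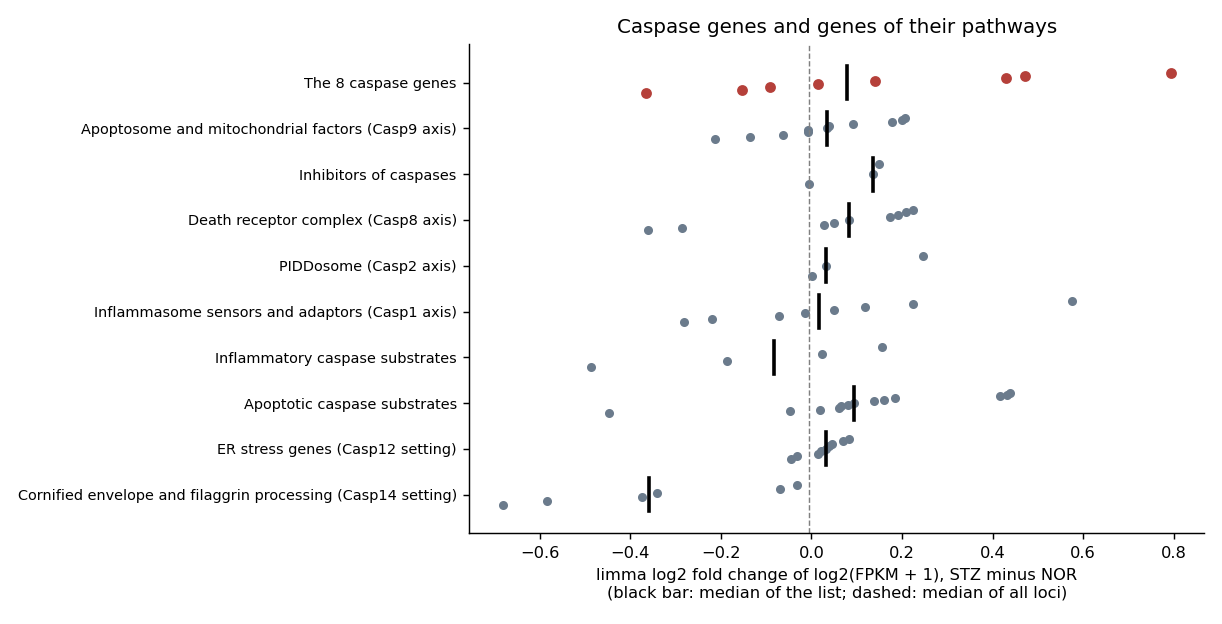
limma log2 fold change (horizontal axis, STZ minus NOR) of the 8 caspase genes (top row, red) and of every tested gene in 9 lists of partners and substrates (grey), with the median of each list as a black bar. The caspase median is 0.08, and the list of the cornified envelope lies lowest with a median of -0.36.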

How the data were processed

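Per the labels, cutadapt, FastQC and Bowtie2 were used by the authors on reads of build rn6, with no versions, and no source used here names the program that assembled and counted the loci. Each library's table, as deposited, gives raw counts and FPKM per locus, and a placeholder of 0.0001 FPKM (86380 values) was read as 0.

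log2(FPKM + 1) was quantile-normalized over loci with a mean of at least 0.5 FPKM and compared with limma 3.58.1 (trend) in R 4.3.3. The deposited counts were tested with edgeR 4.0.16 (TMM, quasi-likelihood) and DESeq2 1.42.0. All 3 fits were tested on simulated data. The members and lists were chosen with earlier results of these data known. Named genes were the 8 members and, per pathway list, the 2 of highest mean FPKM, leaving out 705 loci with joined names. Mcl1, Naip6 and Tnfrsf10b were not analysed here, and 1 further pathway list is not reported here. Cradd, Nlrp3 and the single marker genes lie outside that rule and were chosen after their values were seen. Alternatives varied pseudocount, filter, normalization, tool, block and libraries. Promoters are RefSeq's (GRCr8).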

Additional observations from a re-analysis of the deposited data

How the results depend on the processing

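None of the 8 caspase genes passed under any of 18 alternatives. Their log2 fold changes kept direction in 143 of 147 values. The 4 that turned were all of Casp2, at -0.0013 without quantile normalization, -0.12 without STZ replicate 1, -0.0026 without NOR replicate 1 and -0.12 without NOR replicate 3. With 1 library left out, Casp2 ranged between -0.12 and 0.17. Of 68 values of Casp8 and Casp9 fragments 5 turned, all with 1 library left out. Over such fits Casp8 fragment 1 ranged between -0.0485 (without STZ replicate 3) and 0.27, Casp8 fragment 3 between -0.39 and 0.0768 (without STZ replicate 1), and the Casp9 fragment between -0.17 and 0.0566 (without NOR replicate 3), being 0.0485 without STZ replicate 1 and 0.0283 without STZ replicate 2. The cause was not tested.

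Of all loci, 11 passed with limma. The number was 6 with a pseudocount of 0.1, 3 without a filter on low values, 3 over single-symbol coding loci, 6 with edgeR, 6 with edgeR's own filter and 99 with DESeq2, and between 3 and 10 with 1 library left out. STZ and NOR share replicate numbers, but nothing says that these pair the samples, and deviations of same-numbered libraries correlated at -0.0092, 0.0251 and 0.0323, not always best with their own number. With a replicate block 1 locus passed with limma and 0 with edgeR, none of them a caspase gene. In the paired fits Casp8 had an unadjusted p of 0.0210 with limma and 0.0131 with edgeR.

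Depth limits Casp4 and Casp6 most, with as few as 148 and 156 counts in a library. With 3 libraries per group an interval that includes 0 does not show that groups are alike.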
